A study of Mus musculus with 8 samples.

Results

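The VEGF ligands and their receptors were followed in cultured mouse fibroblasts through 8 genes: the ligand genes Vegfa, Vegfb, Vegfc, Vegfd and Pgf, the receptor gene Kdr, and the co-receptor genes Nrp1 and Nrp2. They are matched by gene symbol, 8 of the 17910 genes in the count table; the rule uses no measured value, but the set was put together with earlier results of these data known. All 8 passed the filter on low counts that left 12618 genes for testing. RNA came from wild-type mouse embryonic fibroblasts (MEFs), connective tissue cells of the embryo, bought from a cell repository and grown in culture medium with serum. The 4 groups held 2 libraries each: cells given SRT1720 (0.2 µM) 30 min before RSL3 (1 µM), cells given RSL3, cells given SRT1720, and control cells, all labelled as 2 h. The labels describe the schedule of the combined treatment and give none of its own to SRT1720 alone or to the control. RSL3 inactivates the lipid peroxide-reducing enzyme GPX4 and is used to start ferroptosis, an iron-dependent form of cell death. SRT1720 was developed to activate the deacetylase SIRT1. The values are expected counts, estimated read counts per gene, and summed to 20579122 to 21287620 per library. These are bulk cultures with no vessel wall, so the data concern RNA of the fibroblasts and say nothing of secreted protein or of vessels.

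VEGF ligands are secreted dimers that guide the growth of blood and lymph vessels. VEGF-A binds the receptor tyrosine kinases FLT1 and KDR, and KDR carries most of its growth signal in endothelial cells. VEGF-B and placental growth factor (PGF) bind FLT1, while VEGF-C and VEGF-D act mainly on FLT4 of lymphatic endothelium. Neuropilins 1 and 2 bind VEGF together with these receptors and also serve as receptors for class 3 semaphorins. Fibroblasts are a usual source of the ligands, whereas Kdr is best known from endothelium. Transcription of Vegfa is known to rise with hypoxia-inducible factor (HIF) and with ATF4, the factor of the integrated stress response, and its mRNA is short-lived because AU-rich elements in its 3′ untranslated region bind decay factors such as ZFP36.

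The promoters of Vegfa, Pgf and Kdr are shown because these 3 genes were higher in RSL3 than in control cells. They are RefSeq sequences of build GRCm38.p6, from 250 bases before to 50 bases after a gene's start, and all 8 genes had at least 1 entry. The windows are chr17:46032328-46032627 for Vegfa (the outer of 2 listed starts), chr12:85177264-85177563 for Pgf (likewise) and chr5:75978406-75978705 for Kdr, all on the minus strand. Capitals mark matches, on either strand, to 2 of 6 motifs searched: the GC box GGGCGG and the antioxidant response element TGACNNNGC.
Vegfa promoter: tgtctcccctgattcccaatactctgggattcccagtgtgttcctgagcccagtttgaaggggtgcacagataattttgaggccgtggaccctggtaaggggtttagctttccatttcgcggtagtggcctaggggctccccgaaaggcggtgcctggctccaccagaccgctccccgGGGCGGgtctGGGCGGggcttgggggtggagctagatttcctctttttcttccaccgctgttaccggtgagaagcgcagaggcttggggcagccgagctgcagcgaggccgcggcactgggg
Pgf promoter: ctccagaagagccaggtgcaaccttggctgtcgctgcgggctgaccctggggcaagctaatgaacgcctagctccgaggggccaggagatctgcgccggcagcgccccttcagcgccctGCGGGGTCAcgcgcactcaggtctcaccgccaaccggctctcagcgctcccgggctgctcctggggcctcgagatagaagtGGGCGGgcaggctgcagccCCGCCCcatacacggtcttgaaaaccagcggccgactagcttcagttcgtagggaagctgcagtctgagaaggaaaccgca
Kdr promoter: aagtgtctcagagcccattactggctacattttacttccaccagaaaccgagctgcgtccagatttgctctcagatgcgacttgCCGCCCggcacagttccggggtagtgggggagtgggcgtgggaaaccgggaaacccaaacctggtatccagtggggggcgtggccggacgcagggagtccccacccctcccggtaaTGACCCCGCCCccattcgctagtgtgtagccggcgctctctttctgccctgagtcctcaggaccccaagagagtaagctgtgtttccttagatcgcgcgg
The GC box was found in 7 of the 8 members at their first listed start and in 35.7% of all 32851 promoters of the table. The antioxidant response element was found in 3 members, Vegfc, Pgf and Kdr, and in 12.4% of all promoters. Its match in Pgf begins 131 bases before the start, and its match in Kdr, 50 bases before the start, overlaps a GC box. The HIF core ACGTG was absent from all 8 first windows and present at the inner start of Vegfa, and 19.6% of all promoters hold it. Matches to TGATGNAA (the CARE element, 3.97% of promoters), TGANTCA (the AP-1 site, 7.81%) and GAANNTTC (the heat shock unit, 7.86%) were not present in any member's window. These are matches of letters in a short window and say nothing about binding.

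A site from the 3′ untranslated region of Vegfa is shown because decay factors that bind such elements are described with the results. The heptamer TATTTAT, the core of AU-rich elements, occurs 3 times in the longest annotated 3′ untranslated region of Vegfa (1865 bases, GENCODE vM21), 2 times in that of Pgf (776 bases) and 1 time in that of Kdr (1596 bases). It was not found in those of the other 5 members. Of 12152 tested genes with such a region, 31% hold at least 1 heptamer and 4.1% hold 3 or more. The first site of Vegfa lies at chr17:46017595-46017623 (GRCm38, minus strand), with the heptamer in capitals.
Vegfa AU-rich site: ttaatttcaacTATTTATgagatgtatct

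Between RSL3 and control cells 3 of the 8 genes rose (Vegfa, Pgf and Kdr), against 18.3% of all 12618 genes tested, and 0 fell in edgeR, against 17.5%. The count of members that fell was also 0 at an unadjusted p under 0.05 and in DESeq2. Between SRT1720 and control cells 3 rose (Vegfa, Pgf and Nrp2), where 1.1% of all genes rose, and 0 fell, where 0.206% of all genes fell. In that comparison 1 member (Vegfd) was lower at an unadjusted p under 0.05, and 0 were lower in DESeq2. Between SRT1720 plus RSL3 and RSL3 cells 2 rose (Pgf and Kdr; background 11.4%) and 2 fell (Vegfa and Vegfd; background 8.75%). Against SRT1720 cells, the combined treatment had 3 genes higher (Vegfa, Pgf and Kdr; background 12.3%) and 2 lower (Vegfd and Nrp2; background 9.06%). Against control cells it had 4 higher (Vegfa, Pgf, Kdr and Nrp2; background 17.4%) and 1 lower (Vegfd; background 14.1%). The median log2 fold change of the 8 genes was 0.42 for RSL3 against control, where that of all genes was 0.01, and 0.67 for SRT1720 against control, where that of all genes was -0.0. Vegfb, Vegfc and Nrp1 passed in none of the 5 comparisons in edgeR. The comparisons share groups, 3 of them the control libraries, so their results are not independent of each other. The labels do not say whether the 2 libraries of a group come from separate cultures, so the p-values measure the spread between these libraries, which may be technical. In RNA from a whole culture, fewer cells of a kind and less RNA per cell cannot be told apart.

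**Figure D1:**
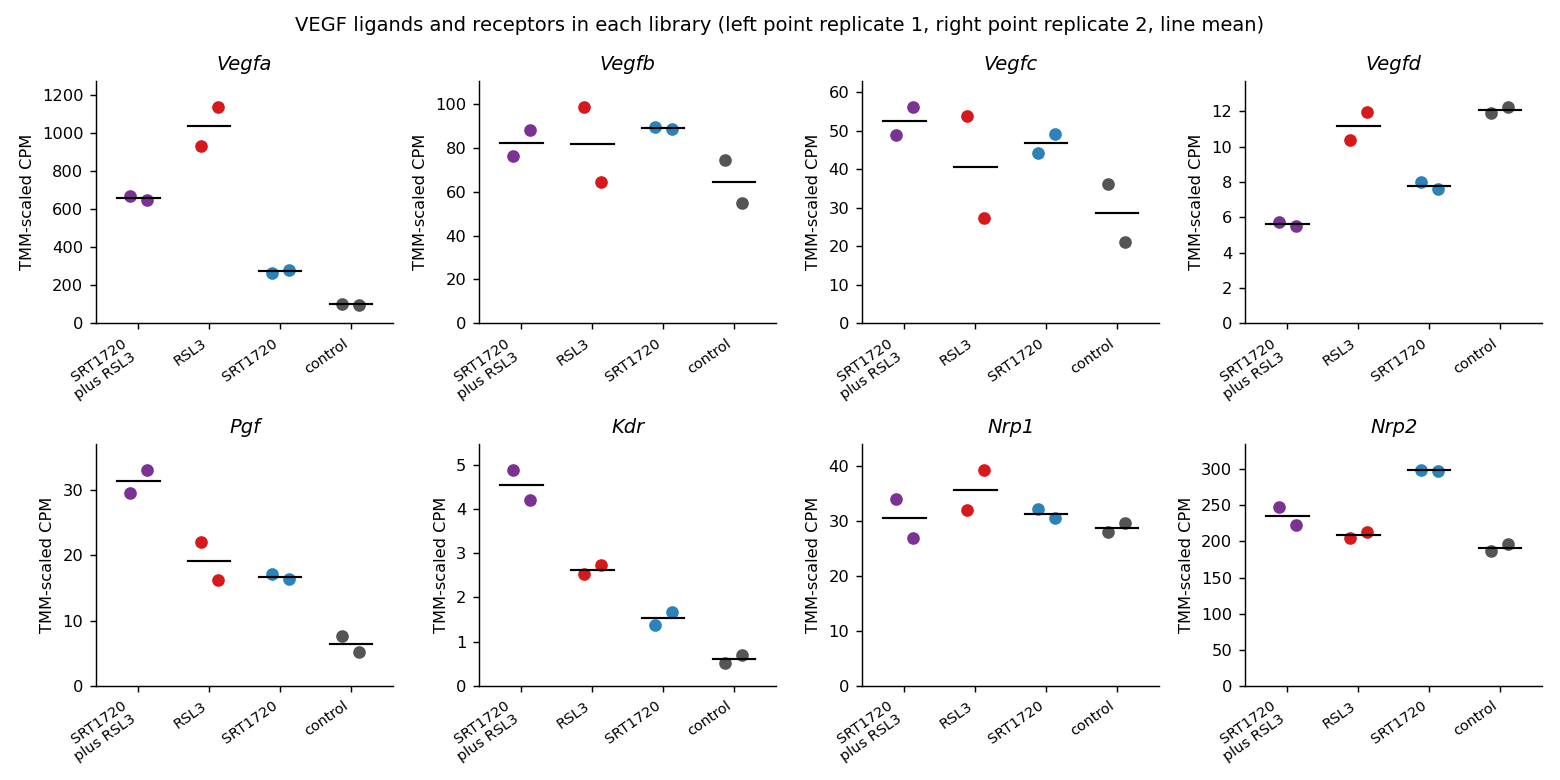
TMM-scaled CPM (linear axes that start at 0) of the 8 genes in every library of the 4 groups, with replicate 1 on the left, replicate 2 on the right and the mean as a line. Vegfa stands at 931 and 1135 CPM in RSL3 cells and at 103 and 96.3 CPM in control cells, and the 2 RSL3 libraries and the 2 control libraries of Vegfb and Vegfc lie far apart.

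**Figure D2:**
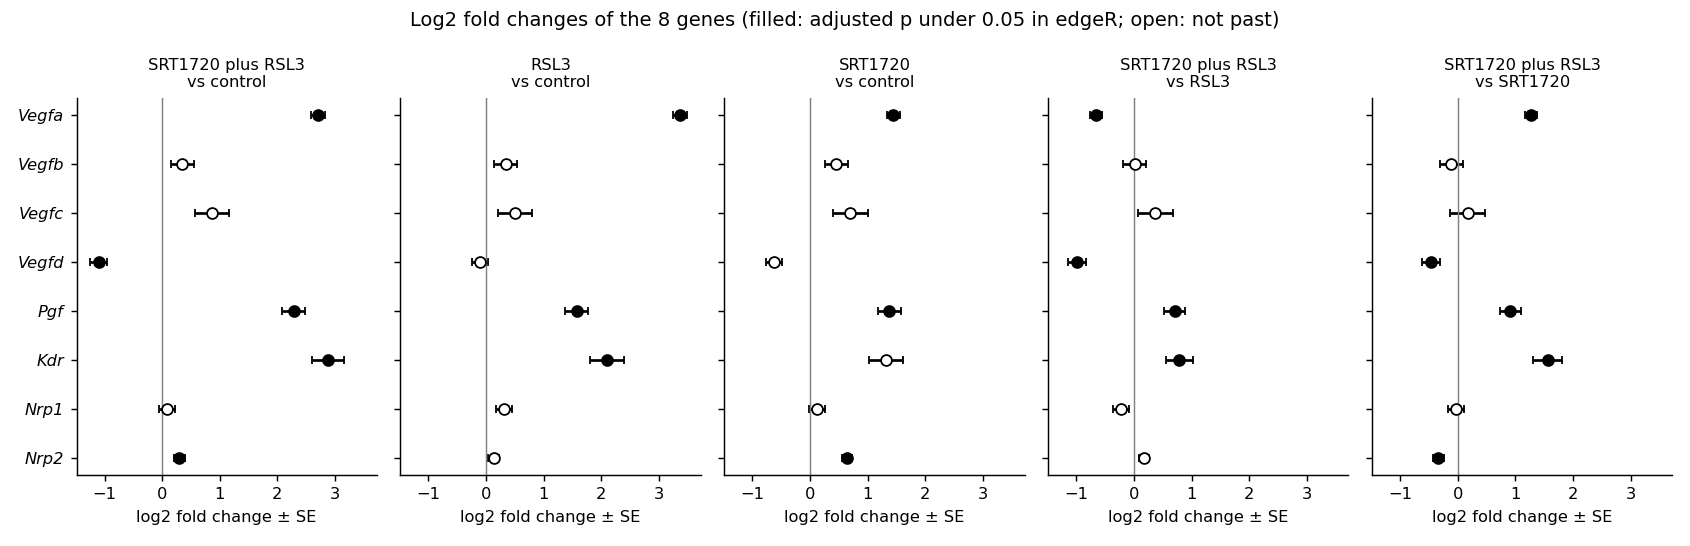
Log2 fold changes (x axis, ± SE) of the 8 genes in 5 comparisons, with points filled where the adjusted p was under 0.05 in edgeR. Vegfa, Pgf and Kdr are filled and right of 0 in 4, 5 and 4 of the panels.

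Among the ligands Vegfa (NCBI Gene ID 22339; chr17:46016993-46032369, minus strand, GRCm38), the main angiogenic ligand, had the largest log2 fold change against control in each treated group. With SRT1720 alone Pgf was close (1.38 ± 0.20 against 1.45 ± 0.11), and it was larger than Vegfa without control replicate 1 (1.687 against 1.499). Vegfa changed less than Vegfd and Pgf between SRT1720 plus RSL3 and RSL3 cells. In TMM-scaled CPM, a count relative to a common library size, its levels were 666 and 645 in SRT1720 plus RSL3 cells, 931 and 1135 in RSL3 cells, 263 and 282 in SRT1720 cells, and 103 and 96.3 in control cells, for replicates 1 and 2. The 4 groups did not overlap, and the order from high to low was RSL3, SRT1720 plus RSL3, SRT1720 and control. RSL3 cells were above control cells by 10.3-fold (log2 fold change 3.37 ± 0.12 SE, adjusted p = 8.63e-08). SRT1720 cells were above control cells by 2.73-fold (1.45 ± 0.11, adjusted p = 0.000471). With both compounds Vegfa was lower than with RSL3 alone (-0.66 ± 0.11, adjusted p = 0.00317) and higher than with SRT1720 alone (1.27 ± 0.11, adjusted p = 6.95e-05) or in control cells (2.71 ± 0.12, adjusted p = 5.04e-07). Neighbours in that order thus differed beyond the spread between libraries. These 5 calls held under all 18 alternative settings run.

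The change of Vegfa with SRT1720 had opposite signs in cells with and without RSL3. The labels give no schedule of its own to SRT1720 alone, so its exposure may differ in length between these comparisons. The difference of the changes, the interaction, is the log2 fold change of SRT1720 plus RSL3 over RSL3 minus that of SRT1720 over control. It was -2.11 ± 0.16 for Vegfa (edgeR, adjusted p = 0.000228), with a range of -2.29 to -1.90 over 17 alternatives, all past the threshold. Over all genes 3.46% passed with a positive and 2.92% with a negative interaction. Vegfa was the only one of the 8 members to pass in edgeR. The other 7 interactions were negative but did not pass, from -0.67 ± 0.27 for Pgf (adjusted p = 0.189) to -0.33 ± 0.42 for Vegfc (adjusted p = 0.716), which turned positive without RSL3 replicate 1 (0.257) or control replicate 2 (0.007). That of Nrp2 was -0.47 ± 0.13 (adjusted p = 0.0636), and it passed with DESeq2 and with a replicate block in which the numbers of the combined libraries were crossed. With both RSL3 and control replicate 1 left out, Pgf passed too (-0.743). All 8 interactions share the same libraries, so a common sign is not 8 separate observations.

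**Figure D3:**
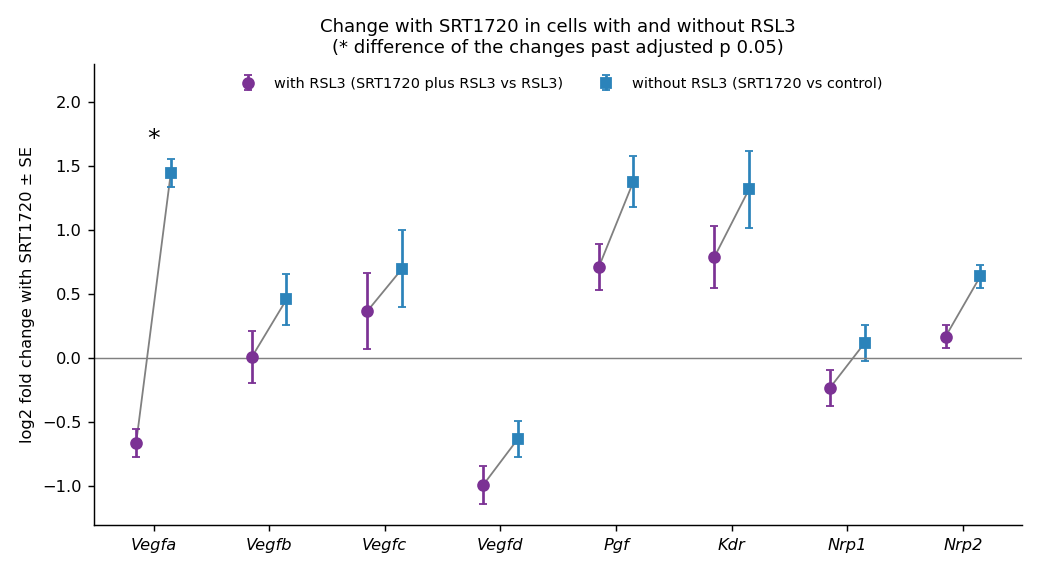
Log2 fold change with SRT1720 (y axis, ± SE) for each of the 8 genes, in cells with RSL3 (circles, SRT1720 plus RSL3 over RSL3) and without RSL3 (squares, SRT1720 over control). The asterisk marks Vegfa, at -0.66 with RSL3 and 1.45 without it, whose difference passed the threshold.

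Pgf (18654; chr12:85166635-85177790, minus strand) encodes placental growth factor, the ligand of FLT1. It was at 29.5 and 33.0 CPM in SRT1720 plus RSL3 cells, 22.0 and 16.2 in RSL3 cells, 17.1 and 16.3 in SRT1720 cells, and 7.64 and 5.17 in control cells. Both libraries of the combined treatment lay above all others and both control libraries below all others, while the RSL3 and SRT1720 libraries overlapped. Pgf rose 2.98-fold in RSL3 over control cells (1.58 ± 0.20, adjusted p = 0.000266) and 4.87-fold in SRT1720 plus RSL3 over control cells (2.29 ± 0.20, adjusted p = 4e-05), calls that held under all alternatives. It also rose in SRT1720 over control cells (1.38 ± 0.20, adjusted p = 0.0129), a call that ended without SRT1720 replicate 1 (1.346) or 2 (1.411) or control replicate 2 (1.127). In SRT1720 plus RSL3 cells Pgf was higher than in RSL3 cells (0.71 ± 0.18, adjusted p = 0.0248) and than in SRT1720 cells (0.91 ± 0.18, adjusted p = 0.0074). The call against RSL3 cells ended without RSL3 replicate 2 (0.508) and without either library of the combined treatment (0.801 and 0.627) or of SRT1720 (0.711 for each), and that against SRT1720 cells without SRT1720 plus RSL3 replicate 2 (0.823) or SRT1720 replicate 1 (0.939) or 2 (0.873).

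Vegfd (14205; chrX:164373378-164402650, plus strand) encodes VEGF-D, a lymphatic growth factor, and was the one ligand that fell against control cells, in those given both compounds. It was at 5.73 and 5.51 CPM in SRT1720 plus RSL3 cells, 10.4 and 11.96 in RSL3 cells, 8.01 and 7.58 in SRT1720 cells, and 11.9 and 12.2 in control cells. The groups given SRT1720 lay below the others, and the RSL3 and control libraries overlapped. Vegfd fell in SRT1720 plus RSL3 against RSL3 cells (-0.99 ± 0.15, adjusted p = 0.00185) and against control cells (-1.10 ± 0.15, adjusted p = 0.000459), under all alternatives too. Its difference from SRT1720 cells was at the threshold (-0.47 ± 0.15, adjusted p = 0.0489) and ended under 10 of 18 alternatives, DESeq2 (-0.479) and limma-voom (-0.47) among them. SRT1720 alone gave -0.63 ± 0.14 against control (adjusted p = 0.0688), and that difference passed under 5 alternatives. RSL3 alone gave -0.11 ± 0.14 (adjusted p = 0.584), or -0.394 with library size only, where it passed.

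Vegfb (22340; chr19:6982473-6987651, minus strand) encodes a FLT1 ligand linked to the heart and to fatty acid uptake. It was at 76.2 and 88.1 CPM in SRT1720 plus RSL3 cells, 98.5 and 64.4 in RSL3 cells, 89.4 and 88.6 in SRT1720 cells, and 74.4 and 54.7 in control cells. The RSL3 libraries spanned all those of the other treated groups, and the lowest value was that of control replicate 2. No comparison passed, and the log2 fold changes against control were 0.35 ± 0.20 with both compounds, 0.34 ± 0.20 with RSL3 and 0.46 ± 0.20 with SRT1720 (adjusted p = 0.21, 0.219 and 0.347). The control libraries moved these values. Without control replicate 1 and 2 in turn, Vegfb stood at 0.584 and 0.142 with both compounds, and at 0.701 and 0.257 with SRT1720. With replicate 1 of both RSL3 and control left out, chosen after seeing the data, Vegfb stood at 0.586 with both compounds and 0.701 with SRT1720. With replicate 2 of both left out it stood at 0.257 with SRT1720. These fits leave the control group without a replicate.

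Vegfc (22341; chr8:54077606-54187096, plus strand) encodes the main lymphatic growth factor. It was at 49.0 and 56.1 CPM in SRT1720 plus RSL3 cells, 53.9 and 27.3 in RSL3 cells, 44.3 and 49.1 in SRT1720 cells, and 36.3 and 21.04 in control cells. Both libraries of the combined treatment and both of SRT1720 lay above both control libraries, while the RSL3 pair spanned nearly the whole range. The combined treatment came closest to passing (0.87 ± 0.30 against control, adjusted p = 0.0513), and it passed under 10 of 18 alternatives. Without control replicate 1 and 2 in turn it stood at 1.317 and 0.535. SRT1720 alone gave 0.70 ± 0.30 (adjusted p = 0.348), or 1.148 and 0.365 without those libraries in turn. With replicate 1 of both RSL3 and control left out, chosen after seeing the data, it stood at 1.149. With replicate 2 of both left out it stood at 0.365. These fits leave the control group without a replicate.

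Vegfb, Vegfc and Pgf were each lower in replicate 2 of the RSL3 pair and in replicate 2 of the control pair. Within the RSL3 pair the libraries differed 1.53-fold for Vegfb, 1.97-fold for Vegfc and 1.36-fold for Pgf, and within the control pair 1.36-fold, 1.72-fold and 1.48-fold. In the SRT1720 pair the same genes differed by 1.01-fold, 1.11-fold and 1.05-fold. Over 9069 genes with at least 100 counts in every library, the SD of the log2 difference within a pair was 0.163 for SRT1720 plus RSL3, 0.297 for RSL3, 0.152 for SRT1720 and 0.233 for control, and the deviations of the RSL3 and control pairs had a correlation of 0.72 across genes. With only replicate 1 of RSL3 left out, Vegfb and Vegfc stood at -0.023 and -0.089 in RSL3 against control cells. With only replicate 2 of RSL3 left out they stood at 0.607 and 0.909. With replicate 2 of both RSL3 and control left out they stood at 0.403 and 0.571. Both genes also stayed positive with replicate 1 of both groups left out, a setting chosen after seeing the data. These fits leave the RSL3 group without a replicate. What sets these libraries apart was not tested.

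Kdr (16542; chr5:75932827-75978458, minus strand), the signalling receptor for VEGF-A, was scarce throughout. Its expected counts, rounded, were 98 and 83 in SRT1720 plus RSL3 cells, 48 and 52 in RSL3 cells, 31 and 38 in SRT1720 cells, and 12 and 16 in control cells. In CPM these were 4.89 and 4.19, 2.52 and 2.74, 1.39 and 1.68, and 0.515 and 0.707, in the same order. No groups overlapped, and the order was SRT1720 plus RSL3, RSL3, SRT1720 and control. The exact 95% Poisson interval of the counts ran from 79.6 to 119 and from 66.1 to 103 for the libraries of the combined treatment, and from 6.2 to 21 and from 9.15 to 26.0 for the control libraries, which covers counting error only.

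Kdr rose in RSL3 over control cells (2.10 ± 0.29, adjusted p = 0.000429), in SRT1720 plus RSL3 over SRT1720 cells (1.56 ± 0.25, adjusted p = 0.00197) and in SRT1720 plus RSL3 over control cells (2.88 ± 0.28, adjusted p = 7.24e-05), 7.38-fold in the last case. These calls held under all alternatives. The difference between SRT1720 plus RSL3 and RSL3 cells (0.79 ± 0.24, adjusted p = 0.0424) ended under 8 of 18 alternatives, among them DESeq2 (0.785), the 4 compared libraries alone (0.782) and the omission of any of the RSL3, SRT1720 or combined libraries. SRT1720 alone gave 1.32 ± 0.30 against control (adjusted p = 0.0752), which did not pass. It passed under 3 alternatives, the crossed replicate block (1.32, adjusted p = 0.0379) and the omission of RSL3 replicate 1 (1.319) or 2 (1.32), and RSL3 and SRT1720 cells were not compared with each other.

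**Figure D4:**
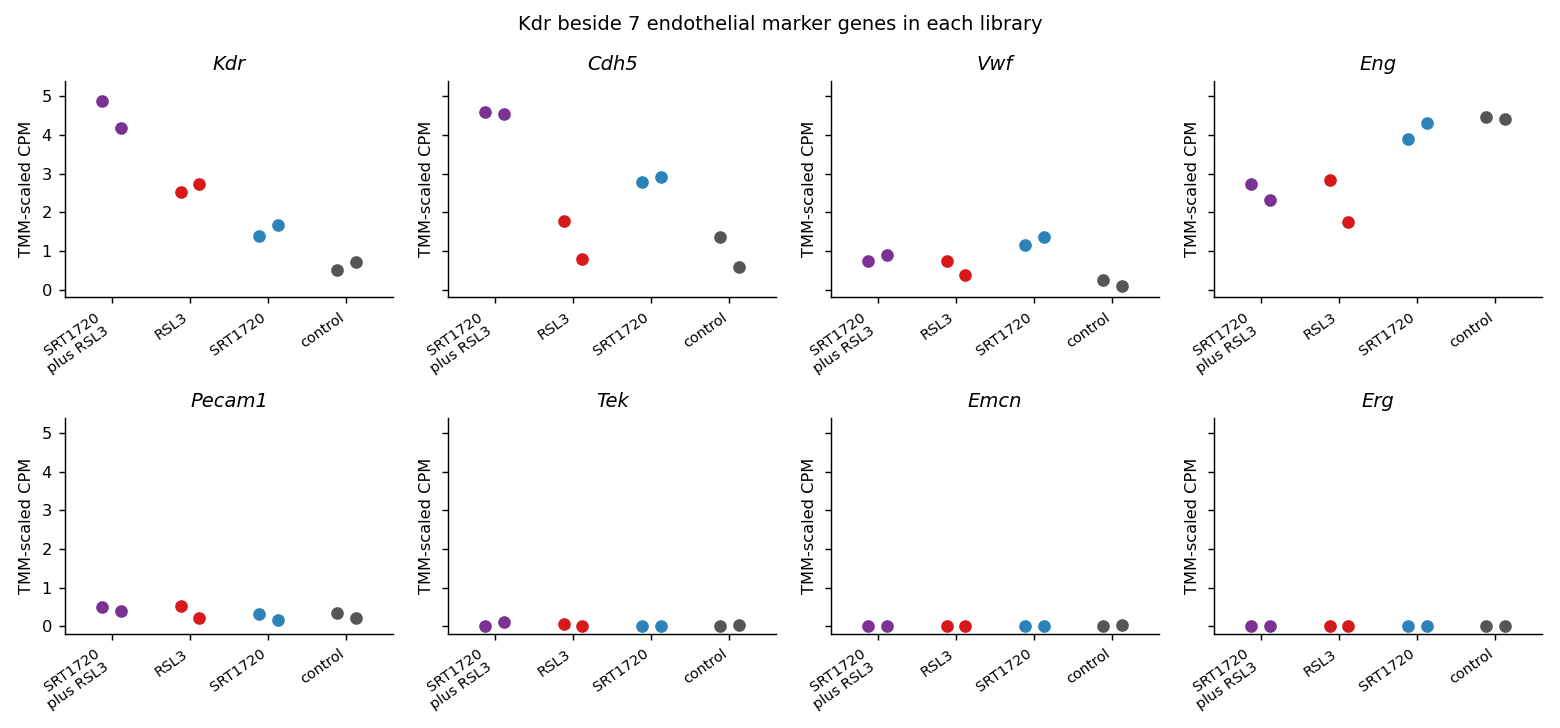
TMM-scaled CPM (shared linear axes) of Kdr and 7 other endothelial marker genes, picked from the list, in every library. Replicate 1 is on the left and replicate 2 on the right of each group. The tested markers Flt1, Flt4, Egfl7, Ramp2 and Plvap are not drawn. Erg is at 0 in all libraries and Pecam1 at 0.525 CPM or less, while Cdh5 reaches 4.59 and 4.55 CPM in SRT1720 plus RSL3 cells.

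Endothelial markers were unequal in level. Of 22 markers 20 were in the table, 9 had enough counts for testing, and 11 to 13 were under 1 CPM in both libraries of a group. Besides Flt1, Flt4 and Kdr, those tested included Egfl7, the gene of a secreted vessel factor, at 7.07 to 9.35 CPM. Also tested were Ramp2, a receptor accessory gene, at 3.44 to 5.06 CPM, and Eng, the endoglin gene, at 1.74 to 4.46 CPM. Plvap, a gene of endothelial diaphragms, was tested too, at 0.947 to 2.51 CPM, as were Cdh5 and Vwf, described below. The endothelial transcription factor gene Erg was at 0 in all 8 libraries, the adhesion gene Pecam1 at 0.176 to 0.525 CPM, and the angiopoietin receptor gene Tek and the sialomucin gene Emcn at no more than 0.101 and 0.0442 CPM. Cdh5, which encodes VE-cadherin, moved with Kdr in part. It was at 4.59 and 4.55 CPM in SRT1720 plus RSL3 cells, 1.79 and 0.790 in RSL3 cells, 2.78 and 2.91 in SRT1720 cells, and 1.37 and 0.575 in control cells. Cdh5 rose with both compounds against control (2.22 ± 0.40, adjusted p = 0.00262), and against RSL3 (1.82 ± 0.40, adjusted p = 0.0115), where the call ended without either combined library. Vwf, the von Willebrand factor gene, rose against control cells with both compounds (2.21 ± 0.57, adjusted p = 0.0156) and with SRT1720 (2.82 ± 0.53, adjusted p = 0.0352). Its levels were very low, at 0.257 and 0.0884 CPM in control cells and no more than 1.37 CPM in any library. Eng fell against control cells with both compounds (-0.81 ± 0.25, adjusted p = 0.0319) and with RSL3 (-0.95 ± 0.25, adjusted p = 0.0143). None of these 4 calls of Vwf and Eng held under all alternatives. The endothelial markers without Kdr summed to 78.0 and 72.6 CPM in SRT1720 plus RSL3 cells, 72.9 and 66.7 in RSL3 cells, 84.7 and 84.2 in SRT1720 cells, and 76.2 and 64.5 in control cells, mostly from Flt1 and Flt4. Without those 2 genes the sums were 21.5 and 22.2, 23.5 and 17.5, 23.6 and 23.5, and 22.1 and 18.5 CPM in the same order. Both sums overlapped among SRT1720 plus RSL3, RSL3 and control cells, where Kdr did not, and both were higher in the 2 SRT1720 libraries than in the 2 control libraries, as was Kdr.

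Fibroblast markers summed to 8265 and 8279 CPM in SRT1720 plus RSL3 cells, 9661 and 11495 in RSL3 cells, 7061 and 7502 in SRT1720 cells, and 7889 and 9678 in control cells over the 13 of 14 genes in the table. The markers Dcn and Fap were under 1 CPM in all groups. Of the 12 tested, 4 rose in RSL3 over control cells, where 18.3% of all genes rose. Vim (0.43 ± 0.09, ended with library size only) was among them. In SRT1720 plus RSL3 against RSL3 cells 5 fell, where 8.75% of all genes fell. Pdgfrb (-0.93 ± 0.12) fell under all alternatives and Col1a1 (-0.55 ± 0.12) not without RSL3 replicate 2 or either combined library. Epithelial markers summed to 1.06 to 3.94 CPM, and macrophage markers to 16.1 to 36.7 CPM, with Ptprc, the common leukocyte gene, under 1 CPM. Of 4 tested macrophage markers 3 rose in RSL3 over control cells, Cd68 (1.78 ± 0.23) and Csf1r (1.49 ± 0.30) under all alternatives and Cd14 (0.48 ± 0.16) not under all. Pericyte and smooth muscle markers summed to 656 to 1769 CPM, with 1769 CPM in RSL3 replicate 2 and 1286 CPM in control replicate 2 above the other libraries. Neural markers summed to 220 to 278 CPM. The 1 tested lymphatic marker, Pdpn, which fibroblasts also express, rose in all 5 comparisons, with 380 ± 6.40 CPM in SRT1720 plus RSL3, 229 ± 31.7 in RSL3, 209 ± 5.92 in SRT1720 and 87.9 ± 13.7 in control cells (SD, n = 2), and Prox1 and Lyve1 were under 1 CPM. The part that such markers have in the results of the 8 genes was not tested.

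The other receptor genes of the family, Flt1 and Flt4, were in the table and passed in none of the comparisons in edgeR. Flt1 was at 31.3 and 26.8 CPM in SRT1720 plus RSL3 cells, 31.0 and 36.2 in RSL3 cells, 35.1 and 33.6 in SRT1720 cells, and 27.5 and 31.4 in control cells. Flt4 was at 25.3 and 23.6, 18.4 and 12.9, 26.1 and 27.1, and 26.6 and 14.6 CPM in the same order. Flt4 was thus also lower in replicate 2 of the RSL3 and control pairs.

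Nrp2 (18187; chr1:62703285-62818695, plus strand), the neuropilin best known from lymphatic vessels and veins, was at 248 and 223 CPM in SRT1720 plus RSL3 cells, 204 and 213 in RSL3 cells, 299 and 297 in SRT1720 cells, and 186 and 196 in control cells. The SRT1720 libraries were highest, and no groups overlapped. Nrp2 rose in SRT1720 over control cells (0.64 ± 0.09, adjusted p = 0.0117), a call that ended without either control library (0.602 and 0.679) or either SRT1720 library (0.634 and 0.646). In SRT1720 plus RSL3 cells it was lower than in SRT1720 cells (-0.34 ± 0.09, adjusted p = 0.0246) and higher than in control cells (0.30 ± 0.09, adjusted p = 0.0312). The call against SRT1720 cells ended when any of the 4 libraries compared was left out, at -0.424 to -0.263. The call against control cells ended under 8 alternatives, among them library size only, where the change was 0.074. RSL3 and control cells differed by 0.13 ± 0.09 (adjusted p = 0.316), and this value turned to -0.158 with library size only. That scaling moves all genes of the comparison by -0.28 on the log2 scale.

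Nrp1 (18186; chr8:128358604-128503363, plus strand), the neuropilin of arteries and axons, was at 34.0 and 26.9 CPM in SRT1720 plus RSL3 cells, 31.9 and 39.3 in RSL3 cells, 32.1 and 30.6 in SRT1720 cells, and 27.9 and 29.6 in control cells. The ranges of the treated groups overlapped, and the largest difference from control, that of RSL3, did not pass (0.31 ± 0.14, adjusted p = 0.121). It passed without RSL3 replicate 1 (0.432).

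Levels can be set against each other between genes only per length, here as CPM per kilobase of exon (the union of exons in the basic transcripts of GENCODE vM21, GRCm38). On this scale Vegfb stood first in control cells (50.4 ± 10.9, SD, n = 2), ahead of Vegfa (28.4 ± 1.43). In the other groups Vegfa stood first, with 186 ± 4.13 in SRT1720 plus RSL3, 293 ± 41.0 in RSL3 and 77.4 ± 3.90 in SRT1720 cells, where Vegfb followed with 64.1 ± 6.59, 63.6 ± 18.8 and 69.5 ± 0.428. In SRT1720 cells the gap between them was small next to the others. Nrp2 ranked 3 and Vegfc 4 in every group. Kdr was last, at 0.766 ± 0.0826 in SRT1720 plus RSL3, 0.444 ± 0.026 in RSL3, 0.259 ± 0.0343 in SRT1720 and 0.103 ± 0.023 in control cells. These ranks were the same with the longest basic transcript or with CPM by library size alone. With the longest transcript, however, Nrp2 (28.4) came close to Vegfa (28.9) in control cells.

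Of the summed ligand CPM per kilobase, Vegfa made up 66.2% and 62.4% in SRT1720 plus RSL3 cells, 69.8% and 81.1% in RSL3 cells, 42.7% and 44.3% in SRT1720 cells, and 26.3% and 31.4% in control cells. Vegfb made up 20.8% and 23.4%, 20.3% and 12.7%, 40.0% and 38.2%, and 52.0% and 49.0% in the same order. The ligand RNA of control cells was thus led by Vegfb in both libraries, and that of the RSL3 and combined groups by Vegfa. Vegfd held 0.98% and 0.916% with both compounds and 5.19% and 6.86% in control cells. The share of a gene falls when another gene rises, so these shares do not separate the genes' own changes.

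**Figure D5:**
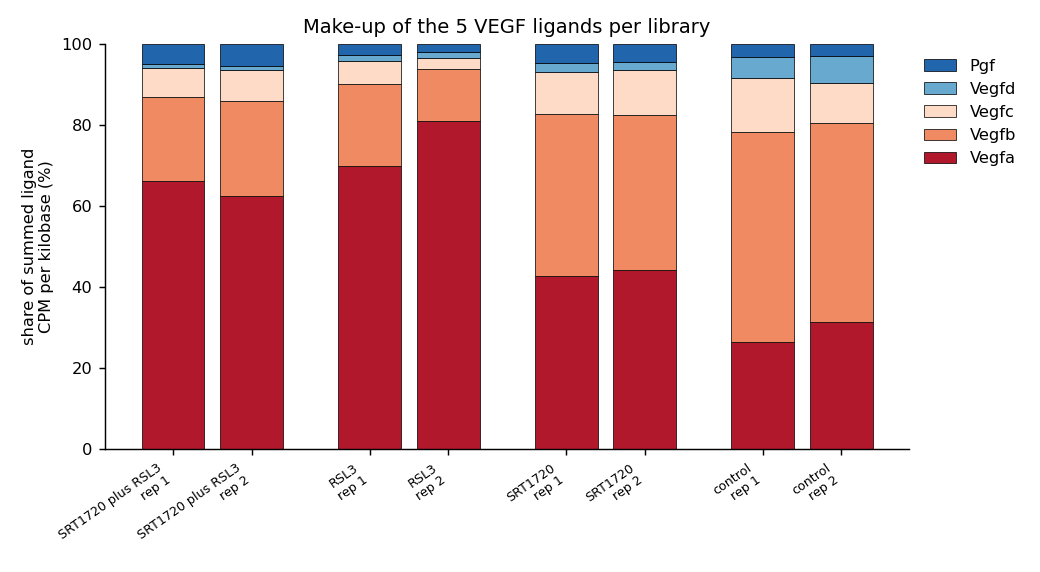
Share of each of the 5 ligand genes in their summed CPM per kilobase (y axis, %) in each library, stacked from Vegfa at the bottom to Pgf at the top. Vegfa holds 69.8% and 81.1% in RSL3 libraries and 26.3% and 31.4% in control libraries, where Vegfb holds 52.0% and 49.0%.

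The genes whose pattern over the 8 libraries was most like that of Vegfa were the metallothionein genes Mt1 and Mt2, the cyclooxygenase gene Ptgs2, the nuclear receptor gene Nr4a1 and the hypoxia-responsive gene Ndrg1. Likeness was the root mean square difference in log2 CPM, each gene centred on its control mean, over 9535 genes, and was 0.27 for Mt1, 0.34 for Ptgs2, 0.35 for Nr4a1, 0.36 for Mt2 and 0.39 for Ndrg1. On that scale Vegfa stood at 2.71, 3.36 and 1.45 above its control mean with both compounds, RSL3 and SRT1720, and Mt1 at 2.64, 3.30 and 1.38. For Kdr they were Stc2, which encodes a stanniocalcin (0.21), Fam110c (0.31), Fam214a (0.33), the phosphatase gene Dusp5 (0.35) and the transcription factor gene Maff (0.36). Kdr stood at 2.72, 1.96 and 1.21 above its control mean, and Stc2 at 2.61, 1.90 and 0.85. All libraries of a group share their treatment, and these likenesses carry no test.

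This list and those below were chosen with earlier results of these data known, so their counts and medians are descriptions. Among 30 genes known to regulate Vegfa transcription, 28 were tested. In RSL3 over control cells 14 rose and 1 fell (median 0.48), where 18.3% of all genes rose and 17.5% fell (median 0.01). The transcription factor genes Klf4 (286 ± 0.590 against 21.3 ± 1.00 CPM; 3.75 ± 0.10), Foxo3 (184 ± 24.6 against 41.2 ± 3.41 CPM; 2.16 ± 0.13) and Fos (2.89 ± 0.21) rose. In SRT1720 plus RSL3 against RSL3 cells 2 rose and 5 fell (median -0.11). They included Foxo3 (60.9 ± 5.88 against 184 ± 24.6 CPM; -1.60 ± 0.12), Klf4 (-1.13 ± 0.09) and Egln1, which encodes an oxygen-sensing hydroxylase that marks HIF for removal (-1.42 ± 0.11). The interaction was negative for 4 genes, and Klf4 (-1.74 ± 0.13), Foxo3 (-1.73 ± 0.17) and Egln1 (-1.40 ± 0.15) were among them. In SRT1720 over control cells 2 rose, Klf4 (0.61) and the stress sensor Atf6 (0.58). With both compounds 11 rose and 1 fell against SRT1720 cells and 12 rose and 3 fell against control cells. As background for all lists, 11.4% of all genes rose and 8.75% fell with both compounds against RSL3 cells. Against SRT1720 cells these shares were 12.3% and 9.06%, and against control cells 17.4% and 14.1%. For SRT1720 over control they were 1.1% and 0.206%, and for the interaction 3.46% positive and 2.92% negative.

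Among the regulators of Vegfa mRNA decay, splicing and translation, 20 of 21 were in the table and tested. In RSL3 over control cells 9 rose and 3 fell (median 0.08), where 18.3% of all genes rose and 17.5% fell. Those that rose included genes of RNA-binding proteins that degrade AU-rich and stem-loop mRNAs. Zfp36 was at 319 ± 9.43 CPM in RSL3 and 17.3 ± 0.528 CPM in control cells (SD, n = 2; 4.21 ± 0.12), and Zfp36l1 at 291 ± 1.42 and 84.7 ± 5.14 CPM (1.78 ± 0.10). Rc3h1, the gene of roquin-1, rose by 1.46 ± 0.11. With both compounds 2 rose and 8 fell against RSL3 cells. Zfp36 was at 72.6 ± 2.15 CPM with both and 319 ± 9.43 CPM with RSL3 (-2.14 ± 0.11), and Zfp36l1 (-1.15 ± 0.09) and Rc3h1 (-0.67 ± 0.11) fell too. The interaction was negative for 6 of the 20, including Zfp36 (-2.39 ± 0.15), Zfp36l1 (-1.43 ± 0.13) and Rc3h1 (-1.0 ± 0.15, a call that ended without SRT1720 replicate 1). Zfp36, a decay factor for AU-rich mRNA, and Vegfa both had a negative interaction and both were lower with both compounds than with RSL3 alone. A link between these changes was not tested. SRT1720 alone gave 1 gene that rose, Zc3h12a (0.70), and with both compounds 7 rose and 3 fell against SRT1720 cells and 9 rose and 4 fell against control cells.

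All 20 co-receptors and receptor partners were tested. In RSL3 over control cells 4 rose and 2 fell (median 0.20), where 18.3% of all genes rose and 17.5% fell. The receptor phosphatase gene Ptprj (1.03 ± 0.13), the syndecan gene Sdc4 (0.71 ± 0.09) and the ephrin gene Efnb2 (0.72 ± 0.10) rose. With both compounds 2 rose and 4 fell against RSL3 cells (median -0.12). The integrin gene Itgb3, a partner of KDR, was at 10.6 ± 0.609 CPM with both compounds and 4.02 ± 1.07 CPM with RSL3 (1.40 ± 0.26), and Sdc4 fell (-0.83 ± 0.10), as did Ptprj (-0.60 ± 0.13, a call that ended without RSL3 replicate 2 or SRT1720 plus RSL3 replicate 2). Itgb3 also rose with SRT1720 alone (1.70), and Sdc4 had the 1 interaction that passed (-0.78 ± 0.13), a call that ended without either combined library or SRT1720 replicate 1. Against SRT1720 cells the combined treatment gave 1 higher and 3 lower, and against control cells 4 higher and 4 lower.

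Downstream of the receptor, 38 of 40 signalling genes were tested. In RSL3 over control cells 6 rose and 3 fell (median 0.06), where 18.3% of all genes rose and 17.5% fell. Rcan1, a calcineurin inhibitor and a known response gene of VEGF signalling, was at 181 ± 1.92 CPM in RSL3 and 25.5 ± 1.74 CPM in control cells (2.83 ± 0.10). The small heat shock protein gene Hspb1 (3.18 ± 0.40; 1906 ± 1260 CPM in RSL3 cells) and the kinase gene Map2k1 (0.84 ± 0.11) rose as well. With both compounds 2 rose and 5 fell against RSL3 cells, and Rcan1 (-0.81 ± 0.09), the transcription factor gene Nfatc1 (-1.08 ± 0.16) and Map2k1 (-0.59 ± 0.11, ended without SRT1720 plus RSL3 replicate 2) were lower. The interaction of Rcan1 was -1.20 ± 0.14, and 1 positive (Nck1, 0.77) and 1 other negative call (Map2k1, -0.74) ended without some libraries. Against SRT1720 cells 4 rose and 1 fell, and against control cells 6 rose and 5 fell.

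Of 17 genes for the processing and release of VEGF 15 were tested. In RSL3 over control cells 3 rose and 3 fell (median 0.10), where 18.3% of all genes rose and 17.5% fell. The protease genes Adamts1 (3.21 ± 0.30; 306 ± 155 CPM in RSL3 cells) and Plat (1.38 ± 0.11) rose and Ccn2, whose product binds VEGF-A, fell (-0.76 ± 0.12). With both compounds 4 rose and 3 fell against RSL3 cells. Ccn2 was at 1465 ± 126 CPM with both and 339 ± 36.2 CPM with RSL3 (2.11 ± 0.13), Adamts1 fell (-1.70 ± 0.28), and the urokinase gene Plau rose (0.97 ± 0.22, ended without either combined library). The interaction of Ccn2 was 2.09 ± 0.18, opposite in sign to that of Vegfa, and that of Plat was -0.86 ± 0.16, a call that 4 alternatives ended. Mmp3 rose with SRT1720 alone (1.92). With both compounds 3 rose and 3 fell against SRT1720 cells and 6 rose and 2 fell against control cells.

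Class 3 semaphorins and plexins had 12 of 14 genes tested. Shares over all genes in RSL3 over control cells were 18.3% that rose and 17.5% that fell. In RSL3 over control cells 2 rose, Plxnd1 (0.74 ± 0.12) and Sema3c (0.55 ± 0.11, ended with library size only), and 3 fell, Sema3a among them (30.6 ± 4.11 against 46.7 ± 1.63 CPM; -0.61 ± 0.12). With both compounds 2 fell against RSL3 cells, Plxnb1 (-0.98 ± 0.21) and Plxna3 (-0.60 ± 0.15), calls that ended without either combined library (that of Plxna3 also without RSL3 replicate 2). The combined treatment had 3 that fell against SRT1720 cells, and 3 rose and 4 fell against control cells.

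Other angiogenic growth factors had 28 of 30 genes tested. In RSL3 over control cells 8 rose and 5 fell (median 0.04), where 18.3% of all genes rose and 17.5% fell. The EGF receptor ligand genes Hbegf (306 ± 22.3 against 82.3 ± 13.5 CPM; 1.89 ± 0.13) and Areg (2.60 ± 0.24) rose, and Ccn1 fell (-1.25 ± 0.10). With both compounds 4 rose and 1 fell against RSL3 cells. Ccn1, a matricellular integrin ligand, was at 2344 ± 26.9 CPM with both and 400 ± 36.9 CPM with RSL3 (2.55 ± 0.10), Areg rose (1.39 ± 0.18) and Fgf18 fell (-2.09 ± 0.36, ended without SRT1720 plus RSL3 replicate 1). The interaction of Ccn1 was 2.15 ± 0.13, and those of Lif (-0.87) and Fgf18 (-2.77) ended without some libraries. With SRT1720 alone 3 rose (Lif 0.93, Areg 1.62 and Pdgfb 1.27). With both compounds 5 rose and 3 fell against SRT1720 cells and 8 rose and 2 fell against control cells.

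Of 19 angiogenesis inhibitors 18 were tested. In RSL3 over control cells 8 rose and 0 fell (median 0.42), where 18.3% of all genes rose and 17.5% fell. The protease Adamts1, which also sequesters VEGF-A, the metalloproteinase inhibitor Timp3 (0.76 ± 0.11), which blocks VEGF-A at KDR, and Vash2 (1.57 ± 0.14) rose; Vash2 stands on this list with its relative Vash1 but is known to promote vessel growth. With both compounds 3 rose and 3 fell against RSL3 cells, and Spry4 (26.6 ± 1.27 against 8.26 ± 0.388 CPM; 1.68 ± 0.14) and Spry2 (1.06 ± 0.14), inhibitors of receptor tyrosine kinase signalling, were higher. With SRT1720 alone Spry4 rose (0.84) and Timp3 fell (-0.76), and the interaction of Spry4 (0.84) ended under 5 alternatives. With both compounds 7 rose against SRT1720 cells and 8 rose against control cells. Each of the 12 calls of list and marker genes named for SRT1720 against control ended when either SRT1720 library was left out.

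With both compounds further list genes differed from SRT1720 cells and from control cells. The labels of the combined and SRT1720 groups differ in RSL3, and only the combined treatment has a stated schedule for SRT1720. Among transcription regulators Klf4 rose by 2.01 ± 0.09 against SRT1720 and 2.62 ± 0.10 against control, and Atf4, the integrated stress response factor, was at 1213 ± 34.2 CPM with both compounds, against 503 ± 3.71 CPM in SRT1720 and 472 ± 44.4 CPM in control cells (1.27 ± 0.10 and 1.36 ± 0.10). Jun, a component of AP-1, rose too (1.31 ± 0.11 and 1.37 ± 0.11). Zfp36 rose by 1.82 ± 0.11 and 2.07 ± 0.11 against SRT1720 and control cells. Zc3h12a, whose product cleaves mRNA, fell against SRT1720 cells (-1.24 ± 0.13), and the splicing kinase gene Clk1 rose (0.62 ± 0.13, ended without 3 of the libraries in turn). Against control cells Rc3h1 (0.79) and Zfp36l1 (0.63) rose.

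In the receptor signalling list Rcan1 rose by 1.63 ± 0.10 against SRT1720 and 2.02 ± 0.10 against control cells, and Sphk1, the gene of a sphingosine kinase, by 1.25 ± 0.16 and 1.64 ± 0.17. The p38 kinase gene Mapk14 fell (-0.80 ± 0.12 and -0.90 ± 0.12). Among receptor partners Efnb2 rose against both (0.58 and 0.83), Itgb3 (1.97) and Cd44 (0.44, ended with library size only and without the combined replicate 1) rose against control, and the caveolin gene Cav1 (-0.47) and the endocytic adaptor gene Dab2 (-0.41) fell against SRT1720, calls that ended without either combined library or SRT1720 replicate 1. The plexin genes Plxna1 (-0.55 and -0.86) and Plxna3 (-0.64 and -0.82) and the semaphorin gene Sema3a (-0.40 and -0.60) fell against SRT1720 and control cells, and the calls against SRT1720 ended without any 1 of the 4 compared libraries.

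Among processing genes Ccn2 (1.32 and 1.35) and Adamts1 (1.68 and 1.5) rose against SRT1720 and control cells, Plat rose against control (0.97) and the procollagen protease gene Adamts14 fell against SRT1720 (-0.79). Among growth factors Hbegf (1.69 and 1.90), Areg (2.37 and 3.99) and Ccn1 (0.90 and 1.30) rose against both. Among inhibitors Spry2 (1.59 and 1.88) and Vash2 (1.09 and 1.15) rose against both, Timp3 (1.07) against SRT1720 and Spry4 (1.56) against control cells.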

How the data were processed

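RNA-seq of 8 libraries from a stranded poly(A) kit, per the labels' protocols, gave a deposited table of expected counts per gene, a unit inferred here because the values are not scaled to a common total and are mostly but not all whole. The aligner, counter and genome build were not given in the sources used here. Other cells named in the extraction text are not among these samples. Columns were read as replicates 1 and 2 from library names in the labels, where a suffix marks replicate 2. The deposited expected counts were rounded to whole numbers. Genes were tested with edgeR 4.0.16 in R 4.3.3 (TMM scaling, filterByExpr, glmQLFit and glmQLFTest) on all 8 libraries with 1 mean per group, and Benjamini-Hochberg adjustment over 12618 genes at a threshold of 0.05. SE is the absolute log2 fold change over the root of the F statistic. The residual degrees of freedom were 4, the prior degrees of freedom 5.73 and the common coefficient of variation 10.6%. Expected counts can divide reads among genes of similar sequence, so they are not whole numbers of reads. Alternatives were DESeq2 1.42.0, limma-voom 3.58.1, library size only, no low-count filter, the compared libraries alone, replicate blocks and the omission of libraries. The crossed block and the omission of RSL3 and control replicate 1 together were chosen after seeing the data. The script was checked on simulated counts. The members and gene lists were chosen with earlier results of these data known. Up to 3 genes with the smallest p past the threshold are named per list and comparison, cell type markers apart. Marker genes named were chosen after their values were seen. Pattern likeness used genes averaging 5 CPM or more and a prior count of 2. Gene positions and lengths come from GENCODE vM21 (GRCm38) and are matched by symbol, not to the build of the counts.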

Additional observations from a re-analysis of the deposited data

Results flagged for a closer look

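The effect of SRT1720 on Vegfa differed between cells with and without RSL3. Vegfa was at 666 and 645 CPM in SRT1720 plus RSL3 cells against 931 and 1135 CPM in RSL3 cells, a log2 fold change of -0.66 ± 0.11. It was at 263 and 282 CPM in SRT1720 cells against 103 and 96.3 CPM in control cells, a log2 fold change of 1.45 ± 0.11. The difference of these effects, tested as an interaction term in edgeR, was -2.11 ± 0.16 (adjusted p = 0.000228). It ranged from -2.29 to -1.90 over the 17 alternatives run. Whether SRT1720 was given for the same time with and without RSL3 is not stated in the labels.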

How the results depend on the processing

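Of the 48 values of the 8 genes over 5 comparisons and the interaction, 21 passed the threshold. Under up to 18 alternatives these 21 gave 377 values, of which 332 kept direction and call, 45 fell short of the threshold and 0 changed sign. The 13 that passed under all alternatives are named as such in the text. The 27 that did not pass gave 33 values past the threshold and 14 of the opposite sign. For RSL3 against control, the opposite signs were those of Nrp2 with library size only (-0.158), and, without RSL3 replicate 1, of Vegfb (-0.023, range over omitted libraries -0.023 to 0.607) and Vegfc (-0.089, range -0.089 to 0.945). For SRT1720 plus RSL3 against RSL3 they were Vegfb (-0.261) and Vegfc (-0.036) with replicate 2 of both RSL3 and control left out, Vegfb without RSL3 replicate 2 (-0.261) or the combined replicate 2 (-0.096; range -0.261 to 0.367), and Vegfc without RSL3 replicate 2 (-0.035; range -0.035 to 0.959). For SRT1720 plus RSL3 against SRT1720 they were Vegfc with library size only (-0.037) and Nrp1 without the combined replicate 2 (0.121; range -0.224 to 0.121). For SRT1720 plus RSL3 against control they were Nrp1 with library size only (-0.143) or without the combined replicate 1 (-0.102; range -0.102 to 0.243). For the interaction it was Vegfc without RSL3 replicate 1 (0.257) or control replicate 2 (0.007; range -0.776 to 0.257). The cause was not tested.

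Counts of members past the threshold, with 1 library left out, were 3 to 5 for RSL3 against control, 1 to 5 for SRT1720 against control, 2 to 4 for SRT1720 plus RSL3 against RSL3, 2 to 5 against SRT1720, 4 to 6 against control, and 1 to 1 for the interaction. The counts of all genes were 3330 to 4519 (4511 with all libraries), 9 to 511 (165), 846 to 3482 (2546), 1041 to 3542 (2692), 2046 to 4940 (3971) and 183 to 1247 (804) in that order. With replicate 1 of both RSL3 and control left out, 6 members and 1605 genes passed for SRT1720 against control, 4669 genes for the combined treatment against RSL3, 4606 against SRT1720, and 2 members and 1530 genes for the interaction. With replicate 2 of both left out, 5 members passed for RSL3 against control, 394 genes for SRT1720 against control, 4589 for the combined treatment against SRT1720 and 1224 for the interaction. With only the compared libraries, 2931 genes passed for RSL3 against control, 286 for SRT1720 against control, 1578 for the combined treatment against RSL3 and 4682 against SRT1720. DESeq2 gave 403 genes for SRT1720 against control and 2 members for the interaction. The replicate block gave 3, 3, 4, 4, 6 and 1 members and 4570, 203, 2577, 2713, 4024 and 789 genes in the order above. The replicate numbers do not pair the samples across all groups. Deviations of same-numbered libraries correlated at 0.72 between RSL3 and control, and at -0.02 between SRT1720 and control. For the combined treatment the correlation was -0.37 with RSL3 and -0.29 with control. With the combined numbers crossed, the replicate block gave 5 members and 500 genes for SRT1720 against control and 2 members and 1341 genes for the interaction. Among the gene lists, DESeq2 gave 1 lower gene of VEGF processing in RSL3 cells where edgeR gave 3, and 3 higher with SRT1720 where edgeR gave 1. Depth limits Kdr most, with 12 and 16 counts in control libraries.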
